A study of Mus musculus with 6 samples.

Results

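The histone genes of embryoid bodies containing motor neurons are described here over 6 Affymetrix mouse exon arrays. The members were chosen by gene name, as every row of the table whose name begins with Hist1h to Hist4h, H1f, H2af or H3f. This gave 57 of 19613 genes, made up of 46 genes of the replication-dependent clusters and 11 replacement variants. The family was proposed after the levels and SDs of these arrays had been seen, so both are given as descriptions without a test. All 6 arrays form 1 group. The embryoid bodies were grown from the mouse embryonic stem cell line HBG3, in which green fluorescent protein marks cells that switch on the motor neuron gene Hb9, were induced towards spinal motor neurons with retinoic acid and a hedgehog agonist, and were then exposed to blood fluid from strain B6CBA-Tg(HDexon1)62Gpb/3J, a Huntington's disease model that carries a fragment of the human disease gene. The donors were male carriers that had no symptoms yet. The labels call the fluid plasma and the methods call it serum. The cells are a mixture in which only a part become motor neurons. Arrays with control serum were not analysed here, so the values give levels under this serum and their spread over arrays, not a response. The study describes 6 serum samples, while the labels do not say whether the cultures were separate, and the spread may in part be technical.

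Histones are the proteins around which DNA is wound. The core histones H2A, H2B, H3 and H4 form the nucleosome, and H1 binds the DNA that links nucleosomes. Genes of the replication-dependent clusters supply histones for newly copied DNA. They lack introns as a rule, are transcribed mainly in S phase, and their mRNAs end in a stem-loop and not in a poly(A) tail. Replacement variants lie outside these clusters. As a rule, though not for every member, they are made through the cell cycle and also in cells that no longer divide, and carry poly(A) tails. Embryoid bodies with motor neurons hold both dividing progenitors and neurons that have left the cycle.

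Markers of the labelled cells were present. Of 5 motor neuron markers listed, 4 were matched and all 4 were above background, with Isl1 at 10.33 ± 0.12, Chat at 9.42 ± 0.097, Lhx3 at 8.64 ± 0.11 and Mnx1 at 8.48 ± 0.18 (log2 intensity, mean ± SD, n = 6). All 6 markers of dividing cells and all 6 of postmitotic neurons were above background, and 4 of 5 of neural progenitors, against 1 of 5 for pluripotent cells, 3 of 5 for glia, 3 of 5 for endoderm and 1 of 4 for blood. Over all genes 65.2% were above this background, which is defined below. Counts from such short lists, as for glia and endoderm near that share, say little about which cells were there. Array medians lay between 296 and 311 intensity units. Replicate 8 had the lowest average Pearson's r with the other arrays over all genes, at 0.992 against 0.994 to 0.995, and values of members that rest on it are given without it below.

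Promoter sequences are shown for 5 members on which the results below turn. They are the H2B gene with the widest spread (Hist1h2bk), the H2A gene that starts next to it on the opposite strand (Hist1h2ah), a pair of Hist2 H2A genes that moved in opposite ways over the arrays (Hist2h2ac and Hist2h2aa1), and a steady replacement variant (H2afz). Each is the 150 bases before the start of the gene in RefSeq, assembly GRCm38.p6. Capitals mark matches on either strand to the letters CCAAT of the CCAAT box, to a TATA box spelled TATAAA, and to the octamer known from H2B promoters, spelled ATTTGCAT.
Hist1h2bk, chr13:22035671-22035820, plus strand: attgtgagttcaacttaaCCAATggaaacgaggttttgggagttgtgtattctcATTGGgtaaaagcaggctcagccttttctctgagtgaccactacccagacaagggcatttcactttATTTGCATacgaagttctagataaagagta
Hist1h2ah, chr13:22035644-22035793, minus strand: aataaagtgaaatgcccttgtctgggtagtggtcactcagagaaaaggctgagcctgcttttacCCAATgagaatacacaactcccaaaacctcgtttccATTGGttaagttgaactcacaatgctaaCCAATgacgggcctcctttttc
Hist2h2ac, chr3:96220881-96221030, minus strand: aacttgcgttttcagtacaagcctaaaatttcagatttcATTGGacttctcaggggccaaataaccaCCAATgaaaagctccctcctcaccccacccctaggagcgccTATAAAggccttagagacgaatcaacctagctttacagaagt
Hist2h2aa1, chr3:96245347-96245496, plus strand: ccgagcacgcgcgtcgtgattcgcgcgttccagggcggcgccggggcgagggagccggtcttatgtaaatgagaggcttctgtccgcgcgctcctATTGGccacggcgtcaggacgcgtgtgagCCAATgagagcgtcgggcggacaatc
H2afz, chr3:137864337-137864486, plus strand: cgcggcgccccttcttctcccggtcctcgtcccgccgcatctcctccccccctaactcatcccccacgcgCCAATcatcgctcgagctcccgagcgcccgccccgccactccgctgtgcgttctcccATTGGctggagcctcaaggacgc

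The stretches of Hist1h2bk and Hist1h2ah share 123 bases read from opposite strands, so both genes start from the same short gap. Over the 250 bases before the start, CCAAT was found in 36 of 42 promoters of cluster genes (85.7%) and in 6 of 9 of replacement variants (66.7%), against 33.8% of all 32851 promoters in the table. TATAAA was found in 21 of 42 (50%) and 1 of 9 (11.1%), against 12.4% of all. The octamer was found in 6 of 13 H2B promoters, which belong to 12 genes, and in 6 of 11 H2A promoters. It was found in 0 of 5 H1, 0 of 6 H3 and 0 of 7 H4 promoters, in 1 of 9 of replacement variants and in 1.60% of all. All 13 H2B and all 11 H2A promoters held CCAAT, and 2 of 7 H4 promoters did. For Hist1h2bk and Hist1h2ah the searched window of each gene reaches into the other gene, so 1 octamer can count for both. Hist1h2ae and Hist1h2bg, also neighbours on opposite strands, both held the octamer too. The H2A and H2B counts are thus not separate. The TATAAA counted for Hist1h2bk lay outside its 150 bases shown, where its window reaches into Hist1h2ah, whose own window held none. Such a match need not belong to the gene it is counted for. The letters describe the windows alone and show no binding.

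Most histone genes were detected. Background was set at a mean log2 intensity of 7.47, the level below which 95% of 1032 olfactory receptor genes fell, and 65.2% of all genes lay above it. Of the cluster genes 43 of 46 were above background, and of the replacement variants 10 of 11. The 4 members below were Hist1h1t, the testis H1, at 6.57 ± 0.21, Hist1h2bp at 6.69 ± 0.075, Hist1h4b at 3.39 ± 0.19 and H1foo, the oocyte H1, at 7.46 ± 0.16 (log2 intensity, SD, n = 6). Hist1h4b was among the dimmest genes of the array, at rank 19609 of 19613, although 4 other H4 genes of the Hist1 cluster lay between 12.29 and 12.84 and Hist1h4d at 13.83. H1foo lay at the background level itself, with replicates 5 and 8 at 7.27 and the others between 7.52 and 7.64. The RefSeq table lists Hist1h2br as an older name of H4bc24, and it is counted with H2B by the name on the array. Members of core histone types are near-identical in sequence and can share probe signal, so the level of a single cluster gene is uncertain as to which members it reads.

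The top of the whole array was held by cluster genes. The 5 highest genes of the table were H2A genes, Hist1h2ae at 14.93 ± 0.025, Hist1h2ad at 14.91 ± 0.025, Hist1h2ak at 14.91 ± 0.031, Hist1h2ah at 14.89 ± 0.021 and Hist1h2ac at 14.83 ± 0.052 (log2 intensity, SD, n = 6). Their values ran together, from 14.77 in Hist1h2ac to 14.96 in Hist1h2ae and Hist1h2ak, and in each array these 5 were the only genes within 0.5 of the highest value. Cluster genes made up 8 of the 10 highest genes and 12 of the 20 highest, with H3 genes Hist1h3b at 14.36 ± 0.032 and Hist1h3d at 14.34 ± 0.046 next in order. Many of these values recurred exactly. The 30 values of the 5 H2A genes took only 20 distinct values to 9 significant digits, and 17 of the 30 (56.7%) were equal to the value of another gene or array. These 17 were all the recurring values among the 258 of cluster genes above background. The other 8 genes among the 20 highest had 0 of 48, replacement variants 0 of 60, and all genes 35 of 117678 (0.0297%). How these equal values arose was not tested.

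**Figure D1:**
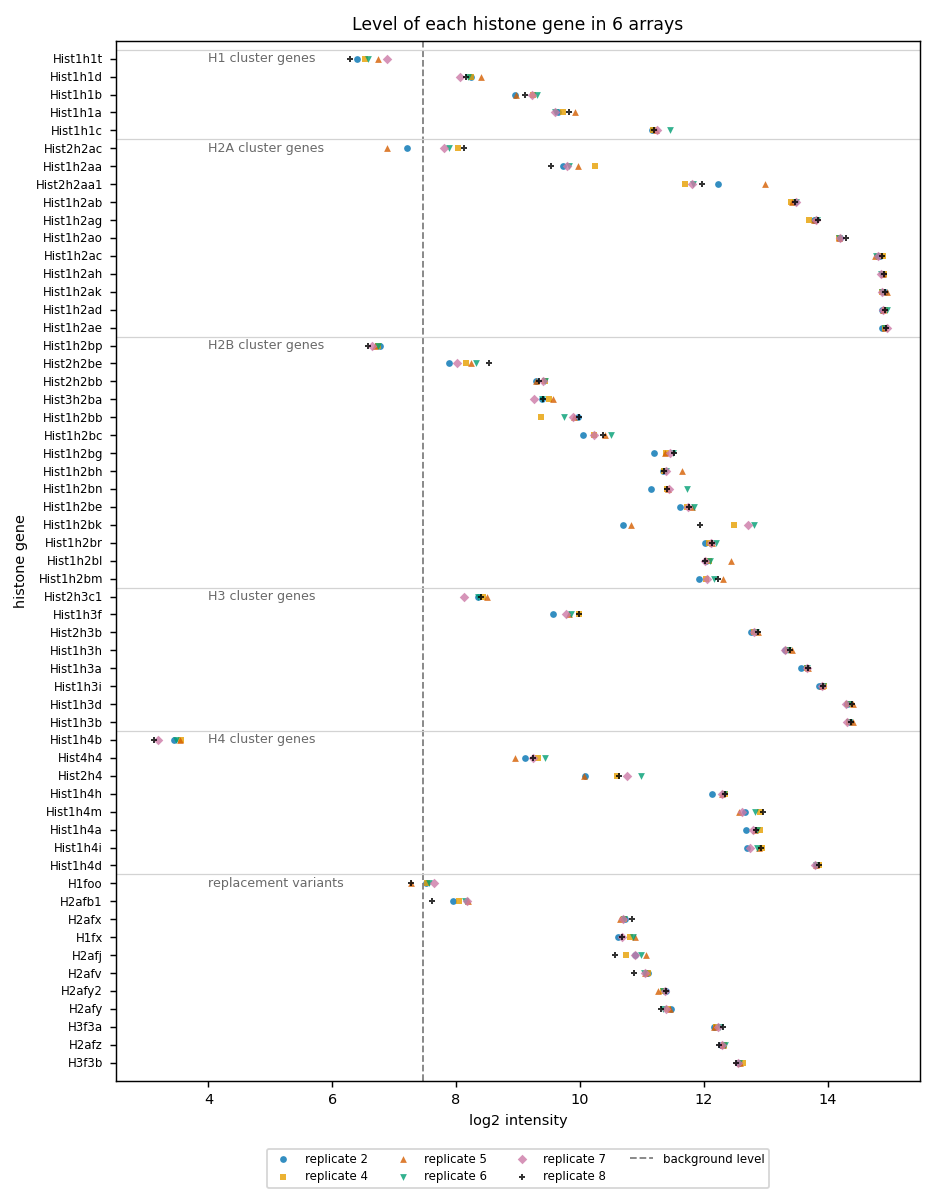
Log2 intensity (x axis) of all 57 histone genes (y axis) in the 6 arrays, each point 1 array, grouped by core type for cluster genes and then replacement variants, with the background level of 7.47 as a dashed line. H2A and H3 cluster genes reach the right edge with points that overlap, the points of Hist1h2bk spread over a 4.35-fold range, and Hist1h4b lies far below background.

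Levels followed the core type. The median level was 14.21 for 11 H2A cluster genes, 13.51 for 8 H3 genes, 12.76 for 7 H4 genes, 11.41 for 13 H2B genes and 9.43 for 4 H1 genes above background (log2 intensity). Each type also spanned a wide range, from 7.66 to 14.93 for H2A and from 8.36 to 14.36 for H3. Probes differ in affinity between genes, so this order ranks intensities and not amounts of mRNA. Among H1 genes, Hist1h1c was highest at 11.25 ± 0.10, and Hist1h1a, Hist1h1b and Hist1h1d lay at 9.72, 9.14 and 8.22. Head-to-head pairs of neighbours were sought only among the 50 members with a promoter sequence, so pairs with other members could be missed. In the 3 pairs found, each an H2A and an H2B gene, the H2A gene was among the 5 highest of the table. They were Hist1h2ah with Hist1h2bk, Hist1h2ak with Hist1h2bn, and Hist1h2ae with Hist1h2bg. The size of the difference between partners is not given because values recur at this end of the scale. Hist1h2aa, an H2A gene of male germ cells, read 9.85 ± 0.24, above background in every array.

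Replacement variants had lower intensities as a class. Their median level was 11.19 against 12.12 for cluster genes above background, and 9.09 for all 12793 genes above background. Within each array the median of cluster genes exceeded that of replacement variants, by 0.78 in replicate 2 to 1.14 in replicate 5. The class medians hide a wide overlap, since the quartiles were 9.84 and 13.72 for cluster genes and 10.78 and 12.02 for replacement variants. The brightest variants were H3f3b at 12.57 ± 0.038 and H3f3a at 12.22 ± 0.061, which encode the same H3 replacement protein, and H2afz at 12.30 ± 0.033, which encodes the H2A.Z variant of regulated promoters (log2 intensity, SD, n = 6). The ranges of H3f3a and H2afz overlapped, with 12.16 to 12.31 for the former and 12.24 to 12.34 for the latter. The macroH2A genes H2afy and H2afy2, known from the inactive X chromosome, read 11.40 ± 0.066 and 11.35 ± 0.047, with ranges that also overlapped. H2afv, the second H2A.Z gene, read 11.03 ± 0.080. H2afj read 10.86 ± 0.18, the linker variant H1fx 10.76 ± 0.11, and H2afx, whose product is phosphorylated at DNA breaks, 10.72 ± 0.066. H2afb1, a testis variant, had 8.02 ± 0.22, which is under the stricter background of 8.33 that 99% of olfactory receptor genes do not reach. H2afb1 is an older name of 2 genes of the RefSeq table, so it could not be tied to 1 of them.

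The median SD was 0.10 for cluster genes, 0.066 for replacement variants and 0.076 for all genes above background (log2). To set genes beside others nearer in level, each SD was divided by the median SD of its bin, out of 20 bins of level with near-equal numbers of genes. The top bin was wide and held Hist1h2bg at 11.41, Hist1h4a at 12.82 and Hist1h2ae at 14.93. Many cluster genes fell in it, and among them the ratio orders genes as their SDs do, whatever their level. This ratio had a median of 1.40 for cluster genes and 1.15 for replacement variants. Without replicate 8, the ratios were 1.87 and 0.91, and without replicate 2 they were 1.25 and 1.13. The difference between the median SDs of the classes, 0.036 over all arrays, was 0.066 without replicate 8 and 0.011 without replicate 2, so its size rests on single arrays. By core type the ratio was 2.47 for H2B, 1.90 for H1, 1.77 for H4, 0.86 for H2A and 0.79 for H3. Of the H2B genes 12 of 13 lay above 1, and of the H3 genes 2 of 8. This compares with 27 of 43 cluster genes and 7 of 10 replacement variants. Over all genes above background it was 6393 of 12793, a share set by the way the ratio is made. The 8 H2A genes with a ratio under 1 had means from 13.46 to 14.93 and the 6 such H3 genes from 12.83 to 14.36, while Hist1h2aa, Hist2h2aa1, Hist2h2ac, Hist1h3f and Hist2h3c1, all lower, lay above 1. Values of the 5 highest H2A genes recur, so their low ratios cannot be read as steady levels of mRNA. Values of H3 genes did not recur, and whether they near the limit of the scale was not tested.

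An SD over 0.2 was found in 7 of 43 cluster genes (16.3%) and 1 of 10 replacement variants (10%), against 4.16% of all genes above background. H2afb1 was that variant, and its SD of 0.22 was 0.098 without replicate 8. The highest array exceeded the lowest by over 1.5-fold in 8 of 43 cluster genes (18.6%) and 0 of 10 replacement variants, against 2.72% of all. These 8 were Hist1h2bk, Hist2h2ac, Hist2h2aa1, Hist2h4, Hist1h2aa, Hist2h2be, Hist1h2bb and Hist1h2bn. Of these, Hist1h2bk, Hist2h2ac and Hist2h4 stayed over 1.5-fold with any array left out. Without replicate 4, Hist1h2bb was at 1.17-fold (SD 0.092) and Hist1h2aa at 1.35-fold (SD 0.16). Without replicate 8, Hist1h2aa was at 1.43-fold and Hist2h2be at 1.36-fold. Hist2h2be was at 1.43-fold and Hist1h2bn at 1.26-fold without replicate 2, and Hist1h2bn was at 1.23-fold without replicate 6. Hist2h2aa1 was at 1.45-fold without replicate 5. The count was 6 to 8 with 1 array left out. The Hist2 cluster gave 4 of its 7 members to this group and the Hist1 cluster 4 of its 34 above background. Of these Hist2 genes, Hist2h2ac at 7.66 and Hist2h2be at 8.19 were under the stricter background of 8.33. With that background the count over 1.5-fold was 6 of 40 cluster genes.

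**Figure D2:**
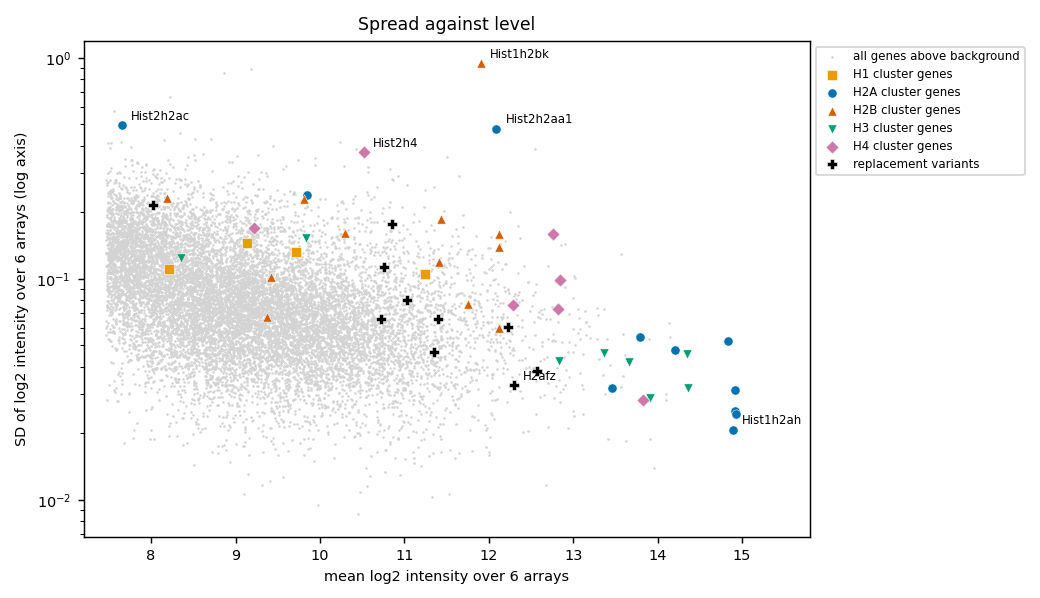
SD of log2 intensity over 6 arrays (y axis, log scale) against mean log2 intensity (x axis) for all 12793 genes above background in grey and histone genes by core type or as replacement variants. Hist1h2bk lies above every other gene at an SD of 0.95, and the H2A and H3 cluster genes at the far right have SDs between 0.021 and 0.055.

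Hist1h2bk had the largest SD of all genes above background. Its log2 intensities were 10.69 in replicate 2, 12.49 in replicate 4, 10.82 in replicate 5, 12.81 in replicate 6, 12.72 in replicate 7 and 11.94 in replicate 8. Replicates 2 and 5 were thus low, replicates 4, 6 and 7 high, and replicate 8 lay between. No single array made this spread, since the SD was 0.82 to 1.06 with any array left out. The neighbouring Hist1h2ah ranged only from 14.87 to 14.91 in the same arrays, near the upper end of the scale and with equal values in several arrays, so its narrow range cannot be read as a steady level.

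Some other cluster genes had the same low arrays. Hist2h4, an H4 gene, read 10.08 and 10.06 in replicates 2 and 5 and 10.59 to 10.98 in the others, a mean of 10.52 ± 0.37 (SD, n = 6). Hist2h2ac read 7.21 and 6.89 in these arrays, below background, and 7.80 to 8.13 in the others. Hist4h4 read 9.11 and 8.95 against 9.24 to 9.44, and Hist1h1b read 8.96 and 8.98 against 9.11 to 9.30. In all 5 of these genes, Hist1h2bk included, replicates 2 and 5 lay below every other array. In all, 10 of 43 cluster genes (23.3%) had replicates 2 and 5 as their lowest arrays, against 6.75% of all genes above background. The 10 include Hist1h2ae, in which replicates 5 and 6 were equal, and Hist1h2ad, both near the upper end of the scale. This pattern was picked out after it was seen.

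Hist2h2aa1 ran the opposite way. It read 12.99 in replicate 5 and 12.24 in replicate 2, and 11.70 to 11.98 in the others, a mean of 12.09 ± 0.48 (SD, n = 6). Its highest array exceeded the lowest by 2.45-fold, and by 1.45-fold without replicate 5. Hist1h2ak also had replicates 2 and 5 as its highest, or tied for highest, arrays, within a range of only 14.88 to 14.96. These 2 of 43 cluster genes compare with 6.75% of all genes. Hist2h2ac and Hist2h2aa1 are both H2A genes of the Hist2 cluster, and their highest and lowest arrays were not the same.

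**Figure D3:**
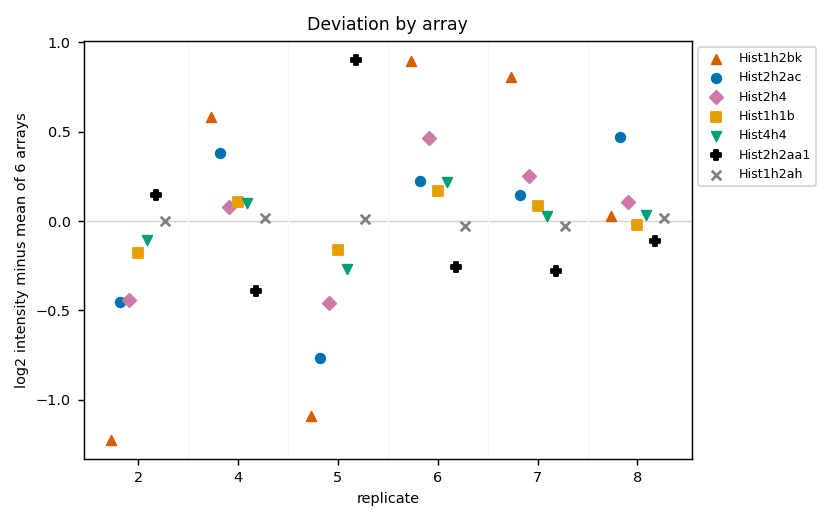
Log2 intensity minus the mean of 6 arrays (y axis) for 7 cluster genes in each replicate (x axis), 1 point per gene and array. Hist1h2bk, Hist2h2ac, Hist2h4, Hist1h1b and Hist4h4 lie below 0 in replicates 2 and 5, Hist2h2aa1 lies above 0 there, and Hist1h2ah, which is near the upper end of the scale and takes equal values in several arrays, stays near 0.

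The genes of the whole table whose values ran most closely with Hist1h2bk were Tmem97, a sterol-regulated membrane protein, Rab35, a small GTPase of endosomes, the linker histone Hist1h1b, Pomgnt1, a glycosyltransferase, and Etv6, a transcriptional repressor. Pearson's r over the 6 arrays was 0.996, 0.983, 0.981, 0.979 and 0.977 in this order, given as a description of the best matches among 12792 genes. Their SDs were far smaller, from 0.042 for Pomgnt1 to 0.15 for Hist1h1b. An r over 0.9 was reached by 102 genes, or 0.797%, among them Hist2h4 at 0.963 and Hist2h2bb at 0.932. What share would reach it by chance over 6 arrays was not tested. Over the other cluster genes above background, r ran from -0.887 for Hist1h2ak to 0.981 for Hist1h1b.

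Dixon's ratio, the distance from the outermost array to the next as a part of the full range, marks a single array far from the others. Such an array was found in 7 of 43 cluster genes (16.3%) and 2 of 10 replacement variants (20%), against 6.97% of all genes above background.

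Replicate 2 was the low array for many cluster genes. It was the lowest of the 6 in 20 of 43 cluster genes above background (46.5%), against 10.1% of all genes, and the highest in 0 of 43, against 11.8% of all. The 20 included 9 of 13 H2B, 4 of 8 H3, 3 of 7 H4, 2 of 4 H1 and 2 of 11 H2A genes. Of the replacement variants, 2 of 10 were lowest there, H1fx and H3f3a. The shift was small for most. The median deviation of cluster genes from their own mean was -0.077 in replicate 2 and lay between -0.016 and 0.031 in the other arrays, while that of all genes above background in replicate 2 was 0.0023. These members are not independent of each other, since they can share probe signal. Under median centring of the arrays the count was 18 of 43. The pattern was picked out after it was seen.

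**Figure D4:**
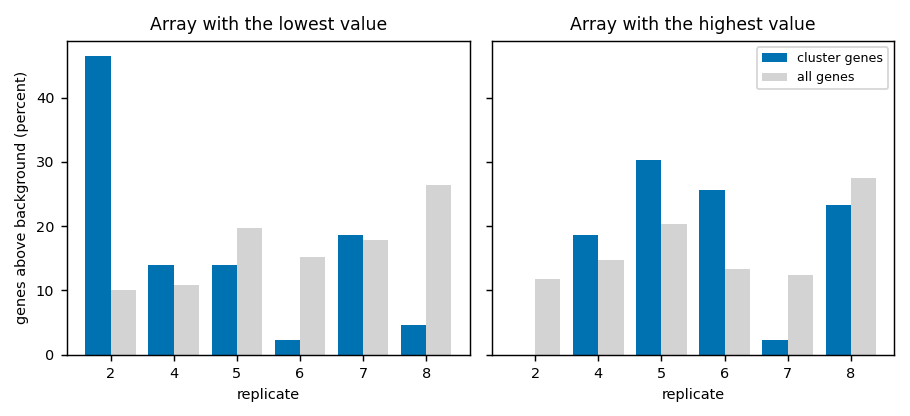
Percent of genes above background (y axis) whose lowest value (left) or highest value (right) fell in each replicate (x axis), for 43 cluster genes in blue and all genes above background in grey, with ties given to the lower replicate number. Replicate 2 holds the lowest value of 46.5% of cluster genes and the highest value of none.

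For replacement variants the low array was replicate 8. It was lowest in 6 of 10, among them H2afv, H2afj, H2afy, H2afz and H3f3b, and the median deviation there was -0.065 against -0.0011 to 0.023 elsewhere. The median deviation of all genes above background in replicate 8 was 0.0086. Replicate 8 also had the lowest array median over all genes of the table. With median centring the range over arrays of the deviation of replacement variants was 0.044 instead of 0.088. Centring thus moved replicate 8 by an offset that genes above background did not share. Without replicate 8 the SD was 0.032 for H2afv (0.080 with it), 0.029 for H2afx (0.066 with it) and 0.021 for H2afz (0.033 with it). Marker means of glia and endoderm were lowest in replicate 8, at 7.81 and 8.73, and those of motor neurons and postmitotic neurons highest, at 9.33 and 12.41. Members of these lists differed. Gfap, Gata4 and Gata6 were lowest there, while Aldh1l1, Mbp and Foxa2 were not, and Foxa2 was at 10.62 against its mean of 10.53. Mnx1, Isl1, Tubb3, Dcx and Elavl3 were highest there, while Chat, Stmn2, Map2 and Snap25 were not. Lhx3 was at 8.54, under its mean of 8.64. The part of these cells in the values of replacement variants was not tested. Over all genes above background, replicate 8 was the lowest array in 26.4% and the highest in 27.5%. H2afx, H2afy2 and H3f3a were highest in it. H2afb1 read 7.95, 8.05, 8.19, 8.14, 8.17 and 7.62 in replicates 2, 4, 5, 6, 7 and 8. H2afj read 10.89, 10.74, 11.07, 10.99, 10.89 and 10.57 in the same order. Both had replicate 8 below every other array, while Hist1h2aa, with 9.73, 10.25, 9.97, 9.82, 9.79 and 9.54, was lowest there and stood highest in replicate 4.

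Genes that serve histone supply had a spread close to that of other genes. Of 11 factors of histone mRNA transcription and 3' end formation, 10 were above background, among them Npat, the coactivator of the clusters, at 9.68 ± 0.061 and Slbp, which binds the stem-loop, at 9.18 ± 0.038 (log2 intensity, SD, n = 6). All 16 histone chaperones were above background, with Asf1b at 9.89 ± 0.035, the chromatin assembly subunit Chaf1a at 8.44 ± 0.052, and Hira, Atrx and Daxx, which load the H3 replacement protein, at 9.63 ± 0.055, 10.15 ± 0.050 and 9.47 ± 0.095. Of 16 S phase genes, 15 were matched and all 15 were above background, with Pcna at 11.25 ± 0.077 and Mcm2 at 10.37 ± 0.037. None of the genes above background in these lists had an SD over 0.2, against 4.16% of all genes. The median SDs of the lists were 0.061, 0.051 and 0.070 in this order, against 0.076 for all genes above background.

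The list means moved over a narrow range between arrays. In replicate 2 the mean was 9.47 for the transcription and 3' end factors, their highest array, 9.78 for chaperones within a range of 9.76 to 9.80, and 9.69 for S phase genes within a range of 9.68 to 9.78. In replicate 5 the S phase mean was at its highest. The mean of 6 markers of dividing cells was lowest in replicate 2, at 10.44 against 10.46 to 10.51. The mean of progenitor markers was also lowest there, at 10.17 against 10.21 to 10.32. Members of both lists differed. Mki67, Top2a, Cdk1, Aurkb, Sox1 and Sox2 were not lowest in replicate 2, while the other members above background were. The pluripotency gene Nanog was lowest there at 8.78 against 8.80 to 9.09, as was the macrophage gene Cd68 at 8.15 against 8.31 to 8.37. The part of these cells in the low values of cluster genes was not tested. In bulk samples, fewer dividing cells and less histone mRNA per cell cannot be told apart.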

How the data were processed

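The authors labelled total RNA with a whole-transcript kit, which does not prime from poly(A) tails alone, hybridised it to Affymetrix mouse exon arrays and applied Robust Multi-array Averaging in Aroma Affymetrix with the mean over exons as the gene value. Each gene has 1 deposited intensity per array, on a linear scale. A later correction for neuron batch in the methods gives log2 ratios; it was not applied here, and the methods do not say with which arrays these 6 were normalized. Affymetrix Expression Console, also named in the submitters' processing notes, served in the methods to screen each batch for outlying arrays, which were left out. The genome build behind the gene annotation is not given in the sources used here, so no coordinates of array features are given; those of promoters are RefSeq's own, on GRCm38.p6, tied to members by name. Columns of other samples numbered 0. Precision is limited by the number of arrays.

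Intensities were taken to log2 without a pseudocount in Python 3.11.15 with pandas 2.3.3 and NumPy 2.4.6, and the loess alternative used statsmodels 0.14.6. SDs and the Dixon ratio were tested on simulated data with independent normal noise, which holds no equal or shared values. Of 57 names, 56 matched 1 gene of the RefSeq table of GRCm38.p6, and promoters were found for 50. Named genes were all replacement variants, the 5 highest, 5 widest and 3 steadiest cluster genes, members over 1.5-fold and members with 1 array far from the others. Further members are named where a pattern seen in the data rests on them. The members, lists and rules were chosen with earlier results of these data known. Alternatives were the leaving out of each array, median centring, a loess correction against mean level, a higher background, no filter on low values, the coefficient of variation, and other class borders.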

Additional observations from a re-analysis of the deposited data

Results flagged for a closer look

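For 33 sets of 6 values, made of named members and class medians, the distance from the outermost array to the next was divided by the full range (Dixon's ratio, at the critical value for 6 samples). Of these sets 10 passed, where 1.65 would be expected if about 1 in 20 passed by chance. Members with a high ratio had been named for it, so this count is not a result about the family. Over all members above background 9 of 53 passed (17.0%), against 6.97% of all genes.

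Replicate 2 was far below the other arrays for Hist1h3a (ratio 0.80, 13.57 against 13.66 or more), Hist1h4h (0.76, 12.14 against 12.30 or more) and Hist1h3i (0.75, 13.86 against 13.92 or more, log2 intensity). Replicate 5 was far above for Hist1h2bh (0.82, 11.65 against 11.40 or less) and Hist1h2bl (0.79, 12.44 against 12.11 or less), both H2B genes. Replicate 6 was far above for Hist1h1c (0.75, 11.45 against 11.24 or less). Replicate 8 was far above for the H2A gene Hist1h2ao (0.82, 14.30 against 14.20 or less) and for H2afx (0.63, 10.84 against 10.72 or less), and far below for H2afv (0.68, 10.88 against 11.03 or more). The median deviation of replacement variants was also far below in replicate 8 (0.72, -0.065 against -0.0011 or more).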

How the results depend on the processing

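Of the recomputed values that answer a comparison, 162 stayed within a limit, 20 moved and no difference between the classes changed sign. The limit was the spread over arrays for levels and deviations, and 1.5 times the main count for counts. For SDs, their difference and SD ratios it was an approximate error of an SD. This error is wide, so the SD difference counted as unmoved at 0.011 without replicate 2, from 0.036. The SD ratio of replacement variants went from over 1 to under 1, at 0.91, without replicate 8. The median level of cluster genes was 12.0004 with no filter on low values. That of replacement variants was 11.03 with no filter and 11.35 with the stricter background, with germ cell members left out or with H2afx counted among cluster genes, and the level difference was then 0.77, 0.76 and 0.75. The number of replacement variants with an SD over 0.2 was 0 under median centring, loess correction, the stricter background and without germ cell members, since H2afb1 was the only one. Median centring moved the range over arrays of the median deviation to 0.15 for cluster genes and 0.044 for replacement variants, from 0.11 and 0.088.

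With each array left out in turn, the level of replacement variants was 11.03 to 11.20, the level difference 0.91 to 1.08, the SD ratio of cluster genes 1.25 (without replicate 2) to 1.87 (without replicate 8), and the number of replacement variants with an SD over 0.2 was 0 to 1. The count of cluster genes lowest in replicate 2 was 18 to 24 under the alternatives run for it, which did not include H2afx among cluster genes and were chosen after seeing the data, as was the SD ratio against the 100 nearest genes, 1.36 for cluster genes and 1.24 for replacement variants. Averaging members with identical proteins was not run. No paired analysis was possible because all 6 arrays belong to 1 group. With 6 arrays SDs are imprecise, and values near the upper end of the scale or near background limit what can be read from them.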
